A study of Mus musculus with 38 samples.

Results

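Thymocyte peaks of SATB1 from standard ChIP-seq were compared with thymocyte peaks of CTCF from urea ChIP-seq. A standard SATB1 peak was taken as shared when it overlapped a peak of the other standard replicate by at least 1 bp, and shared peaks were divided by whether they themselves overlapped a CTCF peak. The third class held the CTCF peaks that overlapped no peak of either standard list. Of 48175 peaks in standard replicate 1, 4651 were shared and had CTCF and 17182 were shared and had none. Of 27147 peaks in standard replicate 2, the corresponding numbers were 4561 and 18327. Of 20323 CTCF peaks, 9268 had no standard SATB1 peak. All peak lists of the series together held 698638 peaks.

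The study mapped SATB1 and CTCF in mouse cells by ChIP-seq, either after the usual preparation of crosslinked chromatin (standard) or after crosslinked DNA had been purified by ultracentrifugation through urea (urea). All 3 lists came from Satb1+/+ thymocytes of C57BL/6 mice, labelled P13. No gene was deleted and no agent was given in any of these samples. Standard replicate 1 used a commercial Abcam antibody and its title carries 6w and 15 s, whereas replicate 2 used an antibody raised by the study's laboratory and its title carries 150 s. The title of the CTCF sample also carries 6w, with 4 ul of an Active Motif antibody. Antibody, the 6w in the title, the number of seconds in the title and replicate changed together between the standard lists and cannot be told apart. Replicate 1 therefore shares the 6w of its title with the CTCF sample, and replicate 2 does not. In the comparison of SATB1 with CTCF, the factor and the chromatin preparation changed together and cannot be told apart either. The labels name a second wild-type thymocyte CTCF sample prepared with urea, which was not analysed here. The comparison thus rests on 2 lists for SATB1 and 1 for CTCF, so spreads are given over the standard lists and no p-value was computed. Whether a standard peak needs SATB1 was not tested here.

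SATB1 is a nuclear protein of thymocytes that organizes chromatin and regulates genes of T-cell development, and it binds AT-rich Base Unpairing Regions (BURs) directly in vitro. CTCF is a zinc finger protein that recognizes a defined core sequence and, with the ring-shaped cohesin complex, holds the bases of chromatin loops. Standard ChIP-seq of either factor detects many promoters and enhancers, and the comparison asks how the sites with both factors differ from those with one.

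The sequences below are examples from each class, and the members of highest fold enrichment need not be typical of it. Each run covers 60 bases on both sides of a summit, on the plus strand of NCBIM37, the assembly of mm9. For shared SATB1 peaks with CTCF, the window is centred on the CTCF summit and capitals mark a match to the CTCF core consensus with at most 1 mismatch. The windows near Ifna13 and Cd209a belong to the shared peaks with CTCF of highest fold enrichment, and those of Smc3 and Pds5b to peaks at starts of cohesin genes.
Ifna13, chr4:88287034-88287154: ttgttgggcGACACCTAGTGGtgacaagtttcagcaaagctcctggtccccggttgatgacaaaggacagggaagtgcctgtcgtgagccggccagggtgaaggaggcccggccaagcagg
Cd209a, chr8:3754511-3754631: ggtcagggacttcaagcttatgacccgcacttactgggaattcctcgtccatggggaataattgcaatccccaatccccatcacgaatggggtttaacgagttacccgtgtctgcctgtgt
Smc3, chr19:53674329-53674449: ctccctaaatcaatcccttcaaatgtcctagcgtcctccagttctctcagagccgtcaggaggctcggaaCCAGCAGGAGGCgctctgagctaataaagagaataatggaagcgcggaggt
Pds5b, chr5:151476193-151476313: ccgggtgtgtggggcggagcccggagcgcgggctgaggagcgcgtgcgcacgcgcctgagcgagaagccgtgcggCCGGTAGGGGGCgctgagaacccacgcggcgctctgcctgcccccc
The window near Cd209a holds no core match, and the other windows hold one each with 1 mismatch.

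For shared SATB1 peaks without CTCF, the window is centred on the summit of standard replicate 1 and capitals mark CG dinucleotides. The windows near Cdrt4 and Rab28 belong to the shared peaks without CTCF of highest fold enrichment, and those of Tcf3 and Notch1 to peaks at starts of genes for T-cell transcription factors.
Cdrt4, chr11:62768150-62768270: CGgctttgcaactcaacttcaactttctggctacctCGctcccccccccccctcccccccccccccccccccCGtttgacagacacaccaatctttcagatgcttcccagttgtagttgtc
Rab28, chr5:41963893-41964013: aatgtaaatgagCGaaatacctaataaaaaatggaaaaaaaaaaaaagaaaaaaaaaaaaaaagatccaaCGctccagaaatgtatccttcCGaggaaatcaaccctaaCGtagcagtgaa
Tcf3, chr10:79896695-79896815: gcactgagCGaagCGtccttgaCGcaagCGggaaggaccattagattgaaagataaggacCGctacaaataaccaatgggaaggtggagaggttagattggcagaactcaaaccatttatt
Notch1, chr2:26324001-26324121: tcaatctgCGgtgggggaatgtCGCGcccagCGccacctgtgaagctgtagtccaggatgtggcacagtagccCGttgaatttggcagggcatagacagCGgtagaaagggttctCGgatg
The Cdrt4 window contains a long run of C and the Rab28 window a long run of A. The Notch1 peak lies in an exon, with its summit 928 bp from the nearest annotated start of a Notch1 transcript.

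For CTCF peaks without standard SATB1, the windows near Crebzf and Caln1 belong to the peaks of highest CTCF fold enrichment, with the best core match in capitals.
Crebzf, chr7:97590531-97590651: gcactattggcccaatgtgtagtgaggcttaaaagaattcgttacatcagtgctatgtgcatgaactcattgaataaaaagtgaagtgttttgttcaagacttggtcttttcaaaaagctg
Caln1, chr5:131329374-131329494: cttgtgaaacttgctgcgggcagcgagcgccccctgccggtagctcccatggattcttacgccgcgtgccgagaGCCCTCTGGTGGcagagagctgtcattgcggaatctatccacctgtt
The Caln1 window holds the core without a mismatch, and the Crebzf window holds no match. The windows of Smc3, Pds5b, Tcf3 and Notch1 were chosen after the values were seen.

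The lists of standard SATB1 were of unequal size, and they shared most of the smaller one. Shared peaks made up 45.3% of replicate 1 (21833 peaks) and 84.3% of replicate 2 (22888 peaks). Among shared peaks, 21.3% in replicate 1 and 19.9% in replicate 2 overlapped CTCF (20.6% ± 0.972, SD, n = 2). Among peaks of 1 standard list only, CTCF was found at 22.9% in replicate 1 and 7.33% in replicate 2. Shared peaks of the lists overlap one another by definition, so their CTCF shares were bound to be close. The peaks of 1 list only lie at different sites in each list.

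Seen from CTCF, 4557 of its peaks (22.4%) overlapped both standard lists. Another 6185 CTCF peaks (30.4%) overlapped standard replicate 1 only, and 313 (1.54%) overlapped replicate 2 only. The remaining 45.6% had no standard SATB1 peak. Whether a CTCF peak counted as free of SATB1 thus rested largely on replicate 1, the longer list and the one whose title carries 6w like that of the CTCF sample, and without it 15453 CTCF peaks had no SATB1. Without replicate 2, and so with no partner required, 10693 peaks of replicate 1 had CTCF, 37482 had none, and 52.86% of CTCF peaks had a peak of the remaining list.

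The borders of the classes were seldom close. Of the pairs of a shared SATB1 peak and a CTCF peak, 13 of 4716 in replicate 1 and 70 of 4596 in replicate 2 overlapped by less than 50 bp. Just outside, 54 shared peaks without CTCF in replicate 1 and 146 in replicate 2 lay within 100 bp of a CTCF peak. Of the CTCF peaks without SATB1, 47 lay within 100 bp of a peak of replicate 1 and 22 within 100 bp of a peak of replicate 2. Shared peaks without CTCF were a median of 19346 bp (replicate 1) and 19034 bp (replicate 2) from the nearest CTCF peak.

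Shared standard SATB1 peaks lay at gene starts much more often than CTCF peaks without SATB1 did. With CTCF, 41.1% of shared peaks in replicate 1 and 40.4% in replicate 2 had their summit within 1 kb of an annotated transcript start (40.8% ± 0.469, SD, n = 2). Without replicate 2, over all 10693 peaks of replicate 1 with CTCF, the share was 25.5%. For shared peaks without CTCF, the share was 44.1% and 46.1% (45.1% ± 1.43, SD, n = 2). For CTCF peaks without standard SATB1 it was 7.71%, or 712 of 9238 peaks on annotated chromosomes. For orientation, 4.00% of the bases of chromosomes 1 to 19, X and Y lie within 1 kb of a start. The difference between SATB1 peaks with and without CTCF was about 4 percentage points, and the gap to CTCF alone was several times larger. Shared peaks of the lists overlap one another by definition, so the SDs do not measure the spread between independent lists. With each list alone and no partner required, the shares with and without CTCF were 25.5% and 33.8% in replicate 1. In replicate 2 they were 38.3% and 39.8%, so the lists lay farther apart than those 4 percentage points.

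**Figure D1:**
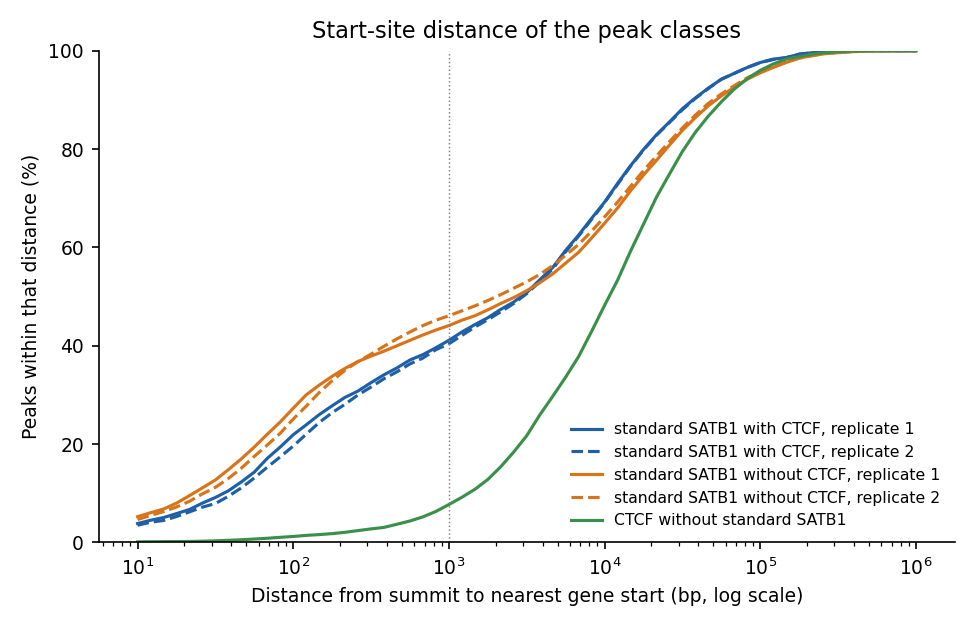
Cumulative share of peaks (%, vertical axis) by distance from the summit to the nearest gene start (bp, log scale), for shared standard SATB1 peaks with CTCF (blue) and without CTCF (orange), replicate 1 solid and replicate 2 dashed, and for CTCF peaks without standard SATB1 (green). The dotted line marks 1 kb, where the SATB1 curves stand between 40.4% and 46.1% and the CTCF curve at 7.71%.

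The median distance to a start was 2.97 and 3.02 kb for shared peaks with CTCF in replicates 1 and 2. It was 2.68 and 2.00 kb for those without CTCF, and 10.7 kb for CTCF peaks without SATB1. The classes with and without CTCF also differed in their placement in introns and between genes. These shares are of all peaks of a class on annotated chromosomes, and peaks within 1 kb of a start count in neither place. Peaks with CTCF lay in introns in 21.3% and 21.5% of cases and between genes in 34.3% and 34.7%. Peaks without CTCF lay in introns in 26.8% and 25.9% and between genes in 27.0% and 26.0%. Intergenic placement was therefore more frequent with CTCF in both lists. CTCF peaks without SATB1 were divided almost evenly between introns (44.0%) and intergenic sequence (43.5%).

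Within the first kilobase, SATB1 peaks sat close to the start itself. The median absolute distance of near-start summits was 92.0 and 106 bp for shared peaks with CTCF and 69.0 and 87.0 bp for those without. Of these near-start summits, 68.4% and 65.5% with CTCF and 63.5% and 59.7% without CTCF were upstream of the start. The near-start CTCF peaks without SATB1 were spread over the window, with a median absolute distance of 487 bp and 25.0% of summits within 200 bp. By comparison, 70.1% and 67.8% of near-start SATB1 summits with CTCF were within 200 bp.

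At starts bound by both factors, the SATB1 summit was usually the nearer one. Pairs were admitted, and their start chosen, by the midpoint between the summits, so that neither factor was favoured. Over 1919 pairs in replicate 1, the SATB1 summit was closer to the start in 67.8% and the CTCF summit in 31.4%. Over 1838 pairs in replicate 2, these shares were 60.9% and 38.1%. The median distance to the start was 103 bp for SATB1 against 157 bp for CTCF in replicate 1, and 116 against 146 bp in replicate 2.

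CTCF peaks with SATB1 were stronger than CTCF peaks without it. The median CTCF fold enrichment, the signal at the summit over the local background, was 9.52 where both standard lists had a peak, 8.46 where 1 list had one and 6.91 where neither did. The share of CTCF peaks with SATB1 rose over quintiles of CTCF fold enrichment. Among CTCF peaks farther than 1 kb from a start, overlap with replicate 1 went from 27.1% in quintile 1 to 77.1% in quintile 5, and overlap with replicate 2 from 9.47% to 34.5%.

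Start sites added to this at every strength. Among CTCF peaks within 1 kb of a start, 63.8% in quintile 1 and 93.7% in quintile 5 overlapped replicate 1. For replicate 2 these shares were 37.1% and 75.3%. In all 5 quintiles, and for both standard lists, the share was higher near starts than away from them. Read the other way, the share near a start was 46.3% in quintile 1 and 45.1% in quintile 5 for CTCF peaks with both standard lists. For CTCF peaks with neither list it was 8.69% and 9.09%. In between, the gap was narrower, with 32.9% against 5.98% in quintile 3 and 33.9% against 7.16% in quintile 4. Over all CTCF peaks the shares were 40.4% and 7.71%.

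**Figure D2:**
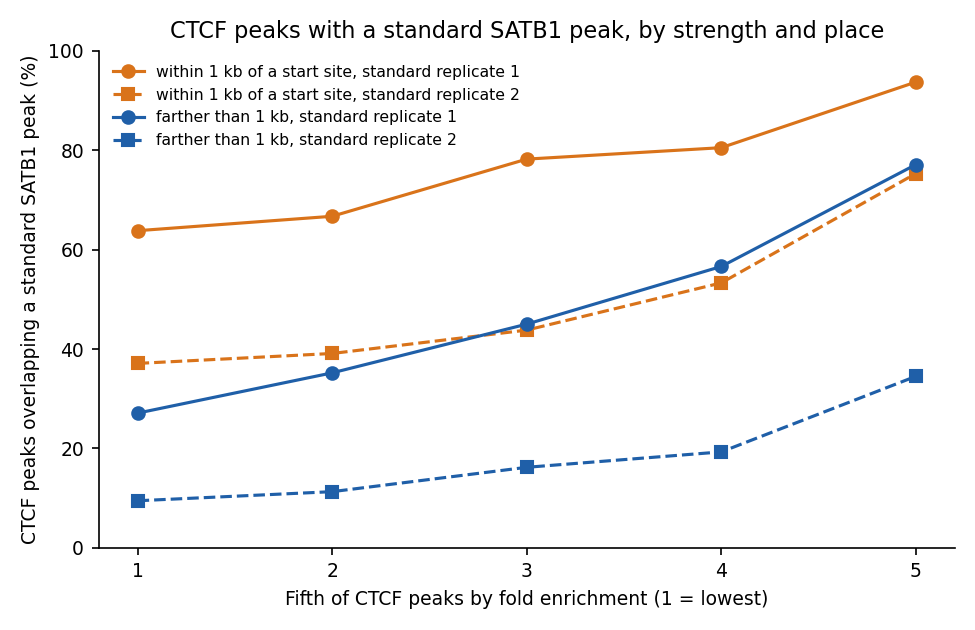
Share of CTCF peaks that overlap a standard SATB1 peak (%, vertical axis) in quintiles of CTCF fold enrichment (horizontal axis, 1 is the lowest), for CTCF peaks within 1 kb of a start (orange) and farther away (blue), with replicate 1 as solid lines and circles and replicate 2 as dashed lines and squares. For each list the near-start line lies above the distant one in all 5 quintiles, from 63.8% against 27.1% to 93.7% against 77.1% in replicate 1.

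Seen from SATB1, the share changed over a narrower range of values. In replicate 1, 17.7% of the weakest quintile of shared peaks and 27.4% of the strongest overlapped CTCF. In replicate 2 these shares were 15.7% and 23.7%. The median SATB1 fold enrichment was 9.23 and 6.46 with CTCF and 8.59 and 6.13 without it, a difference smaller than that between the lists.

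Genes of the T-cell program had SATB1 peaks at their starts more often than protein-coding genes as a whole. A gene was counted when both standard lists had a shared peak within 1 kb of one of its starts. Of 22367 protein-coding genes, 40.2% had any such peak, 33.0% had one without CTCF and 8.01% had one with CTCF. A CTCF peak without standard SATB1 was found at 2.44%. The gene lists were taken from textbook knowledge, and no list was tested.

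**Figure D3:**
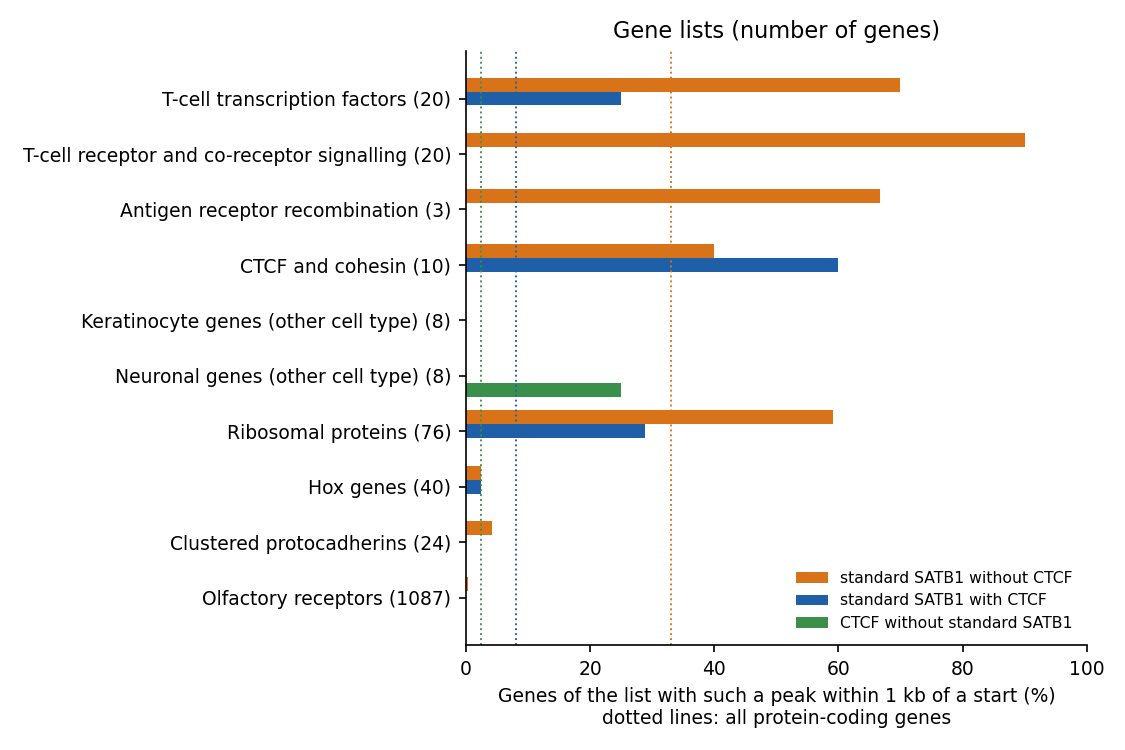
Share of the genes of each list (%, horizontal axis; number of genes in brackets) with a shared standard SATB1 peak without CTCF (orange), a shared standard SATB1 peak with CTCF (blue) or a CTCF peak without standard SATB1 (green) within 1 kb of a start. The dotted lines give the same shares over all protein-coding genes, 33.0%, 8.01% and 2.44%, and the bars of T-cell receptor signalling reach 90.0% without CTCF and 0 with it.

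In the list of T-cell receptor and co-receptor signalling, 18 of 20 genes had a shared SATB1 peak without CTCF and 0 had one with CTCF. The highest fold enrichment was at Lat, the adaptor that the activated receptor uses to assemble its signalling complex, with 21.8 in replicate 1 and 13.2 in replicate 2. Lcp2, a partner adaptor of Lat, had 13.1 and 7.52. The kinases of the receptor complex carried peaks as well. Zap70 had 12.1 and 10.2, Lck had 10.5 and 7.19, and Fyn had 6.49 and 4.98. The co-receptor gene Cd4 had 11.2 and 4.83, the largest ratio between the lists in this group.

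The co-receptor genes Cd8b1 (10.6 and 11.1) and Cd8a (4.51 and 3.38) were both called. Themis, a regulator of thymocyte selection, had 11.4 and 8.26. Among the receptor chains, Cd3g had 10.1 and 8.62, Cd247 had 9.15 and 8.22 and Cd3e had 5.89 and 5.45. Cd3d had a peak in replicate 1 alone, at 3.19, and the same held for Cd6 at 6.17. Surface molecules of T cells were among the others. The costimulatory receptor Cd28 had 8.99 and 9.42, and Cd5, which dampens receptor signals, had 8.55 and 4.60. Cd2 had 5.96 and 6.24, Ptprc had 5.66 and 5.03 and Thy1 had 3.92 and 3.63. The values were higher in replicate 1 at most of these genes, as were the folds of the whole shared set.

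Of 20 genes for T-cell transcription factors, 17 had a shared SATB1 peak at a start. Those with CTCF numbered 5. Tox, needed for the CD4 lineage, had SATB1 fold enrichments of 10.8 and 9.72 in replicates 1 and 2 and a CTCF fold of 16.9. Bcl11b, which fixes the T-cell fate, had 6.56 and 4.66 with a CTCF fold of 7.23. Satb1 itself had 6.35 and 5.59 with a CTCF fold of 8.49. Gata3 had 5.81 and 5.68 with a CTCF fold of 6.26, and Ikzf1 had 5.49 and 3.31 with a CTCF fold of 8.35. Gata3 and Satb1 also had weaker shared peaks without CTCF at a start, at 3.65 and 4.15 for Gata3 and 4.77 and 2.86 for Satb1, so both genes count in either class.

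Shared peaks without CTCF were found at 14 of the 20. The strongest were at Tcf3, which encodes an E protein, with 15.3 and 16.4, and at Notch1, the receptor that starts the T-cell program, with 15.7 and 11.9. The Notch1 peak lies in an exon, with its summit 928 bp from the nearest annotated start of the gene. The E protein gene Tcf12 had 10.9 and 7.39. Factors of early thymocytes were lower. Tcf7 had 3.98 and 3.81, Lef1 had 5.57 and 5.44 and Myb had 6.07 and 4.19. Ikzf3 had 7.33 and 4.61, Ets1 had 6.89 and 5.39 and Id3 had 4.59 and 4.12. Runx1 had 5.11 and 6.30 and Runx3 had 6.29 and 5.49. Foxp3 (5.62), Id2 (5.08) and Zbtb7b (3.35) had a peak in replicate 1 alone. No CTCF peak without SATB1 was found at a start of any gene in the lists of T-cell factors, receptor signalling, recombination or cohesin. Over all protein-coding genes the share was 2.44%, so the absence from lists this short says little about these genes.

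The recombinase genes Rag1 (6.44 and 3.59) and Rag2 (5.59 and 6.12) had shared peaks without CTCF. Dntt, which adds bases at the joints of receptor genes, had no peak of either factor within 1 kb of a start.

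The list of CTCF and cohesin genes differed from the T-cell lists in its makeup. All 10 genes had a shared SATB1 peak at a start, and 6 of them with CTCF. Smc3, a core subunit of the ring, had the highest SATB1 folds, 27.2 and 20.5, with a CTCF fold of 12.5. Stag1, which contacts CTCF, had 13.6 and 10.7 with a CTCF fold of 19.3. Pds5b, a regulator of cohesin release, had 13.3 and 9.99 with a CTCF fold of 15.6. Its paralog Pds5a had 8.99 and 5.71 with a CTCF fold of 7.43. Stag2 had 7.98 and 4.58 with a CTCF fold of 9.91, and Ctcf had 6.45 and 7.07 with a CTCF fold of 15.0 at its own start. Shared peaks without CTCF were found at the others. Rad21 had 9.87 and 10.1, the cohesin release factor gene Wapal had 8.12 and 6.40 and Smc1a had 7.32 and 5.74. The loader gene Nipbl had 5.22 and 5.12. A CTCF peak with a fold of 7.70 also lay within 1 kb of a Nipbl start, but it did not overlap that shared peak.

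Genes used throughout the body and genes of other cell types gave the range around these lists. Of 76 ribosomal protein genes, 68 had a shared SATB1 peak at a start, 22 of them with CTCF and 45 without. Of 8 keratinocyte genes and 8 neuronal genes, 0 had one. The neuronal genes Grin1 (7.69), Snap25 (5.03) and Camk2a (4.30) had a peak in replicate 1 alone. No keratinocyte gene had a peak of either standard list. The neuronal genes Gad1 and Rbfox3 had a CTCF peak without standard SATB1, with folds of 5.07 and 10.2. A shared SATB1 peak was found at 2 of 40 Hox genes, 1 of 24 clustered protocadherin genes and 4 of 1087 olfactory receptor genes. Shared SATB1 peaks at starts were thus as frequent in the ribosomal list as in the T-cell lists. In the lists of other tissues they were well below the 40.2% of all protein-coding genes.

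Shared SATB1 peaks were longer without CTCF than with it in each list, but the lists differed more. The median length with CTCF was 430 bp in replicate 1 and 289 bp in replicate 2 (360 bp ± 99.7, SD, n = 2). Without CTCF it was 492 and 304 bp (398 bp ± 133, SD, n = 2). The order turned with place. Within 1 kb of a start, peaks with CTCF were the longer ones, 641 against 629 bp in replicate 1 and 377 against 330 bp in replicate 2. Away from starts, peaks with CTCF measured 343 and 245 bp and those without it 416 and 288 bp. CTCF peaks at sites of both standard lists had a median of 310 bp, shorter than the shared SATB1 peaks of replicate 1 but not those of replicate 2. CTCF peaks without SATB1 had a median of 252 bp, below all of these. A shared SATB1 peak of replicate 1 covered a median of 93.2% of its CTCF peak and one of replicate 2 covered 74.0%.

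The summits of SATB1 and CTCF lay close together where their peaks overlapped. The median offset was 41.0 bp in replicate 1 and 54.0 bp in replicate 2 (47.5 bp ± 9.19, SD, n = 2). The summits of the standard lists were as far from each other as from CTCF, with a median of 46.0 bp at sites with CTCF and 51.0 bp without. Thymocyte and skin CTCF peaks at the sites of both standard lists were closer, at 26.0 bp. At shared distal sites the offset from SATB1 to CTCF was 36.0 and 48.0 bp, and near starts it was 51.0 and 63.0 bp. More of the near-start pairs were far apart, with 18.2% and 14.6% over 200 bp against 6.15% and 5.82% at distal sites.

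**Figure D4:**
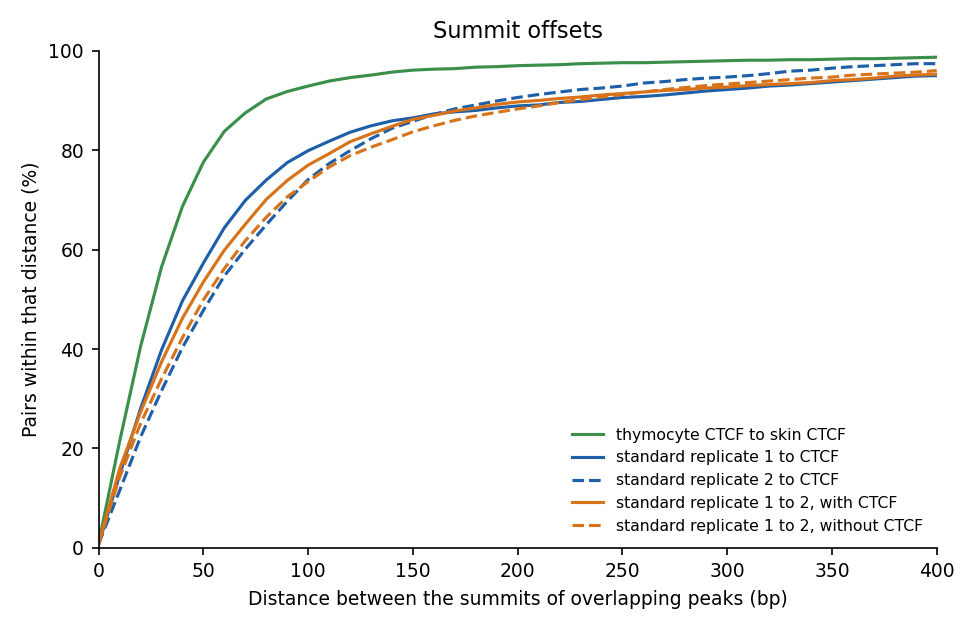
Cumulative share of overlapping peak pairs (%, vertical axis) by distance between their summits (bp, horizontal axis), for standard SATB1 to CTCF (blue, replicate 1 solid and replicate 2 dashed), standard replicate 1 to replicate 2 (orange, solid with CTCF and dashed without) and thymocyte CTCF to skin CTCF (green). The green curve rises first, with a median of 26.0 bp, and the other curves have medians between 41.0 and 54.0 bp.

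The CTCF core consensus separated the classes. Within 100 bp of the CTCF summit, a match on either strand with at most 1 mismatch was present at 74.6% of CTCF peaks without standard SATB1, at 71.0% of those with 1 list and at 56.2% of those with both lists. Windows of the same 201 bp at 69963 protein-coding transcript starts held a match in 2.78%. The difference was found near starts and away from them: 39.9% against 67.7% near starts and 67.3% against 75.2% at distal sites, for CTCF peaks with both lists and with none. It was also present in the strongest quintile of distal CTCF peaks, at 71.9% against 80.6%. Around the summits of shared SATB1 peaks without CTCF, a match was present at 3.02% in replicate 1 and 2.87% in replicate 2, close to the share at starts. A match describes letters in a window and does not show binding.

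Base composition followed the distance to starts. Near starts, the mean number of CG dinucleotides in 201 bp was 16.6 and 15.9 for shared peaks with CTCF, and 16.7 and 16.2 for those without. CTCF peaks near starts without SATB1 had 4.61. Distal members had 4.99 and 4.86 with CTCF, 3.95 and 3.82 without CTCF, and 2.71 for CTCF without SATB1. The windows of near-start CTCF summits without SATB1 were therefore poor in CG, unlike those of near-start SATB1 summits. The windows are centred on summits, and these CTCF summits lay farther from the start. Their median distance was 487 bp, against 69.0 to 106 bp for the shared SATB1 peaks. CG at the starts of each class was not counted.

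The orientation of the core gave the summits a side. Positions were counted from the middle of the match along its own strand, with the 3′ side positive. At sites of both standard lists, CTCF summits had a median position of -3.5 bp, and 45.5% were on the 3′ side. The SATB1 summits of shared peaks were displaced to the 3′ side, with a median of 17 bp in replicate 1 and 16 bp in replicate 2 and with 63.6% and 58.6% positive. Skin CTCF summits, from a second library of the same factor and method, had a median of -0.50 bp and 49.7% positive. Within 150 bp of the core, 1503 SATB1 summits of replicate 1 lay on the 3′ side and 836 on the 5′ side. In replicate 2 these numbers were 1328 and 948.

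The displacement was seen both near starts and at distal sites. At distal sites the medians were 16 bp in both replicates, and near starts they were 18 and 16 bp. Measured against the CTCF summit of the same site instead of the core, the median SATB1 position was 16 bp over 2333 pairs in replicate 1 and 13 bp over 2269 pairs in replicate 2. The spread was wide, since the central quartiles of SATB1 summits ran from -17.5 to 49.5 bp in replicate 1 and from -29.5 to 64.5 bp in replicate 2. Peaks of replicate 1 without a partner in replicate 2 gave a median of 14 bp over 4325 summits. The 232 such summits of replicate 2 gave 1.0 bp, with 51.3% on the 3′ side, so the displacement was not seen in that small group.

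**Figure D5:**
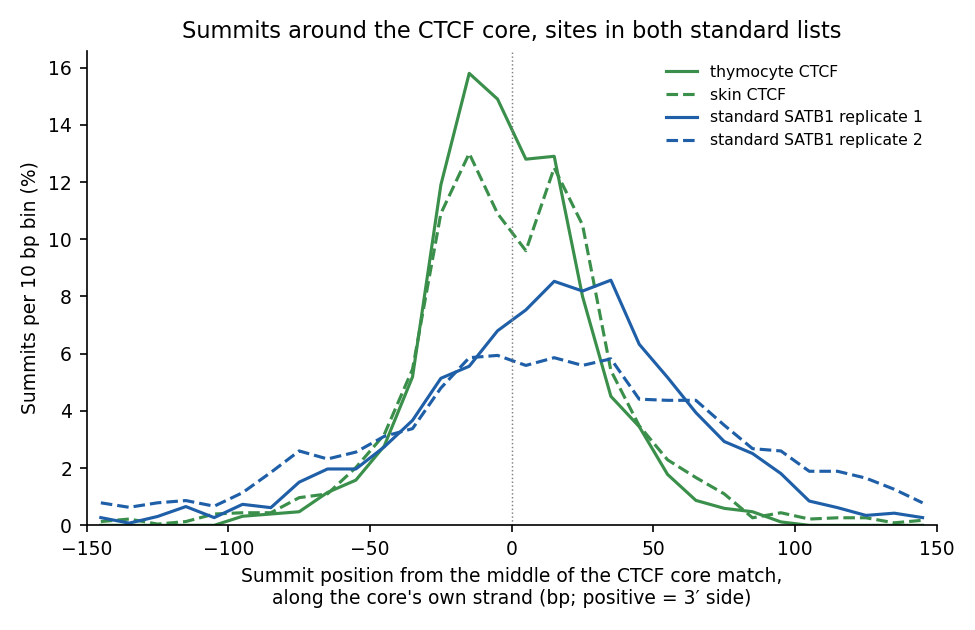
Share of summits (%, vertical axis) in bins of 10 bp by position from the middle of the CTCF core match along the strand of the core (bp, horizontal axis, 3′ side positive), at sites of both standard lists, for thymocyte CTCF (green, solid), skin CTCF (green, dashed) and standard SATB1 (blue, replicate 1 solid and replicate 2 dashed). The CTCF curves gather around 0, with medians of -3.5 and -0.50 bp, and the SATB1 curves extend to the right, with medians of 17 and 16 bp.

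BURs overlapped a small share of each of the 3 classes. A BUR of the reference map overlapped 5.57% and 5.26% of shared SATB1 peaks with CTCF, 3.03% and 2.52% of those without CTCF, and 2.10% of CTCF peaks without SATB1. Regions where all 11 lists of the series have a peak hold a CTCF peak by construction. They could therefore contribute to the first class only, with 51 members in each standard list. Without them, BURs overlapped 4.52% and 4.19% of shared peaks with CTCF. SATB1 peaks from urea ChIP-seq in thymocytes overlapped 4.13% (urea replicate 1) and 3.96% (urea replicate 2) of the shared peaks with CTCF of standard replicate 1, and 3.07% and 2.89% without those regions. For the shared peaks without CTCF of that list, the shares were 0.553% and 0.570%.

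The members of highest fold enrichment were mostly not at starts, and many lay in regions held by other lists as well. With CTCF, the 5 highest were near Ifna13, Cd209a, Ptprj, Il1rapl1 and Ccdc3. The peak chr4:88286908-88287248, 3.30 kb from the start of Ifna13, a type I interferon gene, and between genes, had SATB1 folds of 47.2 and 36.1 (41.7 ± 7.82, SD, n = 2) and a CTCF fold of 13.7. The peak chr8:3754299-3754680, 5.47 kb from Cd209a, which encodes a C-type lectin receptor, had 44.5 and 27.8 and a CTCF fold of 6.74. The remaining peaks, chr2:90235177-90235470 (35.3 kb from Ptprj), chrX:84483570-84483876 (in an intron of Il1rapl1) and chr2:5300087-5300525 (in an intron of Camk1d, with Ccdc3 as the nearest start), had mean folds of 35.5, 34.8 and 34.7. Only the first of the 5 had a core match within 100 bp of the SATB1 summit. Each of the 5 overlapped a peak of 3 to 7 of the other 8 lists of the series. Of the 100 shared peaks with CTCF of highest fold, 46.0% (replicate 1) and 65.0% (replicate 2) overlapped 4 or more of these lists. Over the whole class with CTCF, this held for 4.69% and 4.65%.

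Without CTCF, the 5 highest were near Cdrt4, Rab28, Pde1c, Gpc5 and Timd4. The peak chr11:62768066-62768350, in an intron of Cdrt4, had SATB1 folds of 57.9 in both lists. The peak chr5:41963812-41964098, 135 kb from Rab28 and between genes, had 55.8 and 43.7. The peaks in introns of Pde1c, Gpc5 and Sgcd, the last with Timd4 as the nearest start, had mean folds of 47.8, 47.0 and 46.3. All 5 lie between genes or in introns, and each overlapped a peak of 2 to 4 of the other 8 lists of the series. Each of them and each of the 5 with CTCF overlapped a skin CTCF peak. Over the whole class without CTCF, this held for 6.57% and 6.01%, so these strongest members were not typical of it.

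Among CTCF peaks without standard SATB1, the 5 highest were near Crebzf, Caln1, Hmcn2, Accn1 and Arpp19. The peak chr7:97590483-97590659, 648 bp from the start of Crebzf, had a CTCF fold of 28.1, no core match and no skin CTCF peak, and it overlapped a peak of 4 of the other 8 lists. The peak chr5:131329219-131329617, 405 kb from Caln1, had a fold of 20.5. The peaks in introns of Ncs1 (nearest start Hmcn2) and Arpp19 had folds of 19.9 and 18.8, and the peak between genes near Accn1, which encodes an ion channel, had 18.9. The last 4 each had a core match and a skin CTCF peak, as 74.6% and 81.8% of the class did.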

How the data were processed

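Peak lists of standard SATB1 ChIP-seq (2 replicates) and urea CTCF ChIP-seq (1 list) in thymocytes were analysed. The other 8 lists of the series were used for overlaps only. The authors aligned reads to NCBI37/mm9 with Bowtie2 2.3.1, keeping unique matches with up to 3 mismatches in the seed, and called peaks in each library using MACS2 2.2.7 (q-value threshold 0.01). The deposited fold enrichment is a ratio of the summit signal to the local background and was not scaled across libraries. The deposited p-values and q-values are −log10 values, and the deposited display score was not used. Whether an input entered the calls is not given in the sources used here. The lists hold no counts, so depth is unknown and no counting interval is given.

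Overlaps, distances and sequence matches were computed with Python 3.11.15, numpy 2.4.6, pandas 2.3.3 and pysam 0.24.0 on NCBIM37 and GENCODE vM1, with coordinates 1-based, and plots were drawn with matplotlib 3.10.9. The routines were tested on simulated data. Distances run from the summit to the nearest transcript start. Named peaks were, per class, the 5 of highest fold on chromosomes 1 to 19, X and Y outside regions held by all 11 lists, once per nearest protein-coding gene. Of each class, the first 2 of these 5 whose windows overlap no annotated UTR were printed, and genes of the T-cell, recombination and cohesin lists were named. Some genes counted in these lists are not reported here by name. The members and lists were chosen with earlier results of these data known. Other settings tried were stricter calls (−log10 q of 5 or more), overlap of 50% or of the summit, merged regions, removal of regions held by all lists, assembled chromosomes, equal list sizes, protein-coding starts, 2 kb, peak centres and each standard list alone. The removal of peaks found in 4 or more of the other 8 lists was added after seeing the data.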

Additional observations from a re-analysis of the deposited data

Results flagged for a closer look

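Skin CTCF peaks were found at shared standard SATB1 peaks that had no thymocyte CTCF peak, at 6.57% of them in replicate 1 (1128 peaks) and 6.01% in replicate 2 (1102 peaks). The skin list takes no part in the classification, and its signal at these peaks is what drew attention. Among the 100 of these shared peaks with the highest fold enrichment, the share was 90.0% in replicate 1 and 91.0% in replicate 2, while 11.0% and 9.00% were within 1 kb of a start and a CTCF core match was present at 1 and 2 of the 99 peaks whose window had full sequence (1.01% and 2.02%). A peak of 4 or more of the other 8 lists was present at 21.0% and 30.0% of these 100, against 1.41% and 1.25% of the class. Whether they are CTCF sites was not tested.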

How the results depend on the processing

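CTCF peaks without SATB1 had the smallest share near starts, and shared peaks with CTCF a smaller share than those without, in the reported values and under all 13 alternatives. Of 109 recomputed values, 78 stayed within 1.5 times (counts), 1 SD over the standard lists, or the Wilson interval of a single list. These limits only sort the values. The Wilson interval treats the peaks of 1 list as independent, and the SD comes from lists whose shared peaks overlap by definition. Neither measures the spread between independent libraries. With each standard list alone and no second list required, shared peaks with CTCF ranged from 4873 to 10693 and those without from 22274 to 37482, CTCF peaks without SATB1 from 9581 to 15453, the near-start shares from 25.5% to 38.3% (with CTCF), 33.8% to 39.8% (without) and 7.70% to 10.5% (CTCF alone), the summit offset from 37.0 to 53.0 bp, and the share of CTCF peaks with SATB1 from 23.96% to 52.86%. In each of these pairs the value farther from the reported one came from leaving out replicate 2, except for CTCF peaks without SATB1 and their start distance, where it came from leaving out replicate 1.

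Near-start shares with CTCF were 42.0% at a −log10 q of at least 5, 32.2% at 50% overlap, 38.3% with the summit inside the other peak, 44.6% with lists of equal size, 38.3% for protein-coding starts, 46.6% at 2 kb and 41.7% without peaks of 4 or more other lists. Those without CTCF were 43.6% at 50% overlap, 47.7% with equal lists, 42.5% for protein-coding starts and 49.1% at 2 kb. CTCF alone gave 8.67%, 6.07% and 14.4% under the last 3 of these. CTCF peaks with both standard lists made up 21.05% at the stricter q, 18.98% at 50% overlap, 20.12% by summit, 23.22% with merged regions, 19.66% with equal lists and 21.79% without peaks of 4 or more other lists. With equal lists, 13004 CTCF peaks had no SATB1. Beyond the construction of each alternative, the cause was not tested. No paired analysis was possible because 1 CTCF list was analysed and no test was made. With 1 CTCF list and no counts, a difference between factors cannot be separated from a difference between libraries.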

Other observations

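Standard SATB1 peaks found in 1 list only and without CTCF differed between the lists. Of 20300 such peaks in replicate 1, 25.1% were within 1 kb of a start and 4.53% overlapped a BUR, and their median GC content over 201 bp was 51.7%. Of 3947 such peaks in replicate 2, 10.6% were near a start, 17.4% overlapped a BUR and the median GC content was 42.8%. Peaks of 1 list with CTCF overlapped a BUR in 2.05% of 6042 peaks in replicate 1 and in 7.69% of 312 peaks in replicate 2. The peaks private to replicate 2 were thus richer in A and T and in BURs, although they are few.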
